A study of Mus musculus with 10 samples.

Results

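The sensory peptides CGRP, substance P and PACAP and their receptors are described here from 10 genes: the peptide genes Calca, Calcb, Tac1 and Adcyap1, and the receptor genes Calcrl, Ramp1, Ramp2, Ramp3, Tacr1 and Adcyap1r1. They were taken by gene symbol from a table of 23923 genes, and all 10 were found and had enough counts to be tested among 17439 genes. The libraries are polyadenylated RNA from mouse dorsal root ganglia, which hold the cell bodies of sensory neurons and lie next to the spinal cord, at an age of 1 month. The 5 Kif2a_cKO libraries carried the floxed Kif2a allele on both chromosomes (Kif2a fl/fl) together with Avil cre, in which the recombinase is driven by a gene active in sensory neurons. The 5 control libraries were Kif2a fl/fl without cre. Kif2a, a member of the kinesin family, depolymerizes microtubules. Both groups carry the floxed allele, and cre was present in Kif2a_cKO alone, so cre itself and the loss of Kif2a cannot be told apart. Whether a library is 1 animal is not in the labels, and the p-values therefore cover only the spread among these libraries, which may be technical.

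Peptide-containing nociceptors are pain-sensing neurons that make these peptides in the cell body and release them from their endings in the skin and in the spinal cord. Calca gives rise to calcitonin and to CGRP by alternative splicing, and Calcb encodes a second form of CGRP. CGRP binds Calcrl, a G protein-coupled receptor that reaches the cell surface only with a Ramp partner: with Ramp1 it forms the CGRP receptor, and with Ramp2 or Ramp3 it forms receptors for adrenomedullin. Tac1 encodes substance P and neurokinin A, and Tacr1 encodes the receptor for substance P. Adcyap1 encodes PACAP, and Adcyap1r1 encodes its selective receptor. These receptors act through G proteins, cyclic AMP and phospholipase C. The comparison asks whether ganglia with Kif2a targeted in sensory neurons differ in these transcripts.

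The promoters of the 3 peptide genes with a RefSeq entry are shown because cyclic AMP acts on genes through the cAMP response element, whose core is TGACG. Each window runs from 250 bases before the annotated start to 50 bases after it (RefSeq, GRCm38.p6), reads 5′ to 3′ on the gene's strand, and has every TGACG or its reverse complement in capitals. The Calca window is chr7:114636308-114636607 on the minus strand, the Tac1 window chr6:7554811-7555110 on the plus strand and the Adcyap1 window chr17:93198767-93199066 on the plus strand, the upstream of its 2 annotated starts.
Calca: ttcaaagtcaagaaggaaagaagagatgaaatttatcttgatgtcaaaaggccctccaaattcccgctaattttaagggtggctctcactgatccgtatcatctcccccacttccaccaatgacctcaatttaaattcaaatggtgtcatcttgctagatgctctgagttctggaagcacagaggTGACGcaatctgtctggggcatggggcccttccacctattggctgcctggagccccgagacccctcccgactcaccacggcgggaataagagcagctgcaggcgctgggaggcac
Tac1: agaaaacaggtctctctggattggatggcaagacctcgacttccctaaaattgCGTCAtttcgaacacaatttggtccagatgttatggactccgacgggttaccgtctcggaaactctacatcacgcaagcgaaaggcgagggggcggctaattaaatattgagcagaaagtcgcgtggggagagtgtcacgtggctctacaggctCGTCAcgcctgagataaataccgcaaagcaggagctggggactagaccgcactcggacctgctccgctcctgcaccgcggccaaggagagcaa
Adcyap1: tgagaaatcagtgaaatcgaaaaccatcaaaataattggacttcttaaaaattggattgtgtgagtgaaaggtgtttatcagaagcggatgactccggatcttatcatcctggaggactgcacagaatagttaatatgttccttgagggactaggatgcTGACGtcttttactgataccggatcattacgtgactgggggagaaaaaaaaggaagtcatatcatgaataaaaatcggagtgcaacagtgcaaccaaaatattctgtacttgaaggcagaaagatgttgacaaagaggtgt
Counted from the RefSeq start, the match began at -65 in Calca, at -197 and -43 in Tac1 and at -91 in Adcyap1. For Tac1 the GENCODE M21 gene start, 7554879, lies between these 2 matches, so their positions depend on the annotation. Of the 8 genes with an entry, 5 held TGACG on either strand: these 3, and Ramp1 and Tacr1 with 1 match each. Calcrl, Ramp3 and Adcyap1r1 held none in this window. Among all 32851 windows of this length 20.8% held it. The full palindrome TGACGTCA, which contains TGACG on both strands, was in none of the 8 and in 1.79% of all windows. A match of letters does not show that a factor binds there.

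Library totals ran from 28686616 to 73031457 counts in Kif2a_cKO and from 17506135 to 34500320 counts in controls. Levels are given as CPM, counts per 1000000 after TMM scaling, and means carry the SD over the 5 libraries of a group (n = 5 each). The ganglion label was checked with 9 sensory neuron markers, whose summed level was 3482 to 5476 CPM in Kif2a_cKO, against 3110 to 5233 CPM in controls, led by Prph, a neuronal intermediate filament, at 2406 ± 275 CPM in Kif2a_cKO, against 2174 ± 368 CPM in controls. Spinal cord genes (oligodendrocyte, astrocyte and spinal neuron genes) were also present, and differed widely between libraries. The mean log2 CPM of the 16 tested was 1.75, -0.87, 1.82, 2.83 and 1.85 in Kif2a_cKO replicates 1 to 5, against 4.10, -0.51, 6.03, -0.26 and 4.40 in control replicates 1 to 5. Controls 1, 3 and 5 were the highest, and Kif2a_cKO 2 and controls 2 and 4 were far below the rest. Results that rest on controls 1, 3 and 5 are given with and without them. Without them, the controls left (2 and 4) lie below every Kif2a_cKO library but replicate 2. That comparison is therefore also unbalanced in spinal cord genes, in the opposite direction. Kif2a, the targeted gene, averaged 69.0 ± 4.44 CPM in Kif2a_cKO libraries, against 70.2 ± 8.61 CPM in controls. No source used here gives the deleted exons, so this whole-gene count does not check the deletion, and 1229 exon bases of Kif2a also lie opposite exons of Dimt1. Avil, the gene for which the cre is named, averaged 383 ± 55.0 CPM in Kif2a_cKO libraries, against 678 ± 149 CPM in controls (log2 fold change -0.82, SE 0.156, edgeR adjusted p = 0.351).

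Genes of the peptides were the most abundant of the 10 and had higher means in Kif2a_cKO, whereas the genes for the CGRP receptor partner Ramp1, the substance P receptor and the PACAP receptor had lower means. Without controls 1, 3 and 5 the log2 fold changes of these receptor genes were 0.013 (Ramp1), 1.5 (Tacr1) and 0.98 (Adcyap1r1). Those of the peptide genes were then 0.20 (Calca), 0.13 (Calcb), 0.09 (Adcyap1) and -0.019 (Tac1). None of the 10 genes passed an adjusted p of 0.05 in edgeR, where 0.0172% of all 17439 tested genes did, in DESeq2, where 0.184% did, or in limma-voom with quality weights, where 0.0229% did. At an unadjusted p under 0.05, edgeR had 3 of the 10 higher in Kif2a_cKO (Calca, Calcb and Adcyap1), where 2.97% of all tested genes were higher, and 0 of the 10 lower, where 4.01% of all were lower. DESeq2 had 3 higher and 3 lower at that threshold, where 2.85% and 5.05% of all genes were. limma-voom had 2 higher and 1 lower, where 3.06% and 3.5% of all genes were. None of the 10 had groups free of overlap, as 0.734% of tested genes had with Kif2a_cKO above. The median log2 fold change of the 10 was 0.02 (5 above 0 and 5 below), beside 0.01 over all tested genes. In a bulk sample fewer cells of a type and less RNA per cell cannot be told apart.

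**Figure D1:**
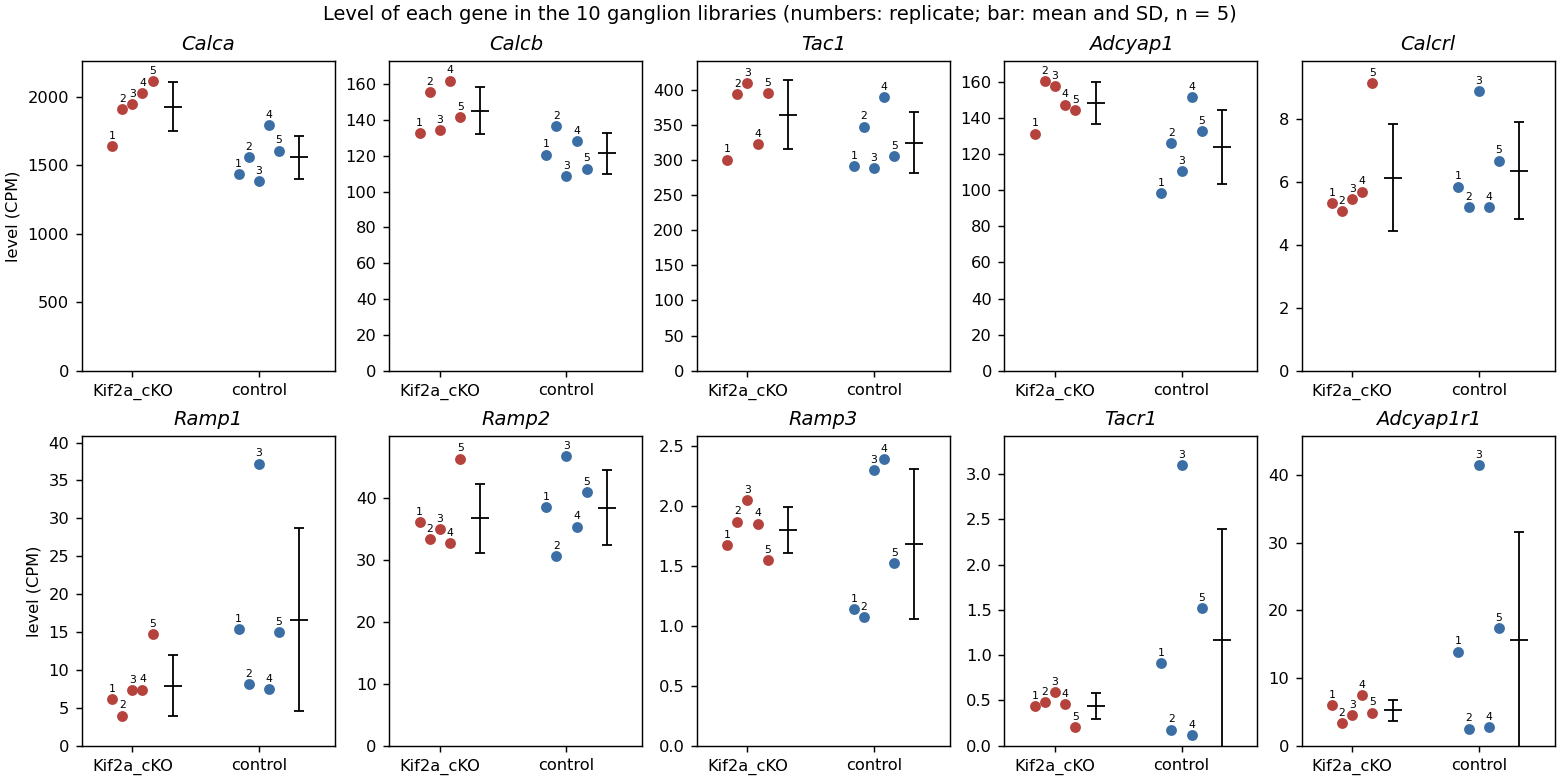
Level in CPM of each of the 10 genes in the 5 Kif2a_cKO libraries (left in each panel) and the 5 controls, with the replicate number at each point and the mean and SD beside it; the lower end of the SD bar is cut at 0 where the SD exceeds the mean. Calca in Kif2a_cKO lies between 1639 and 2115 CPM, and Ramp1, Tacr1 and Adcyap1r1 are highest in control 3.

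Calca, the main CGRP gene, had 1639, 1908, 1944, 2023 and 2115 CPM in Kif2a_cKO replicates 1 to 5, against 1434, 1559, 1386, 1793 and 1606 CPM in control replicates 1 to 5. All Kif2a_cKO libraries but replicate 1 lay above all controls, and Kif2a_cKO 1 lay below control 4 alone. The means were 1926 ± 179 CPM in Kif2a_cKO, against 1556 ± 160 CPM in controls. The log2 fold change was 0.31 (SE 0.0981), a difference of 23.8% with a 95% interval from 6.86% to 43.4%, and it was not called (edgeR adjusted p = 0.703). Calca lies on chromosome 7 from 114631478 to 114636357 (GRCm38), and its count adds the calcitonin and CGRP transcripts together. For Calca the authors' deposited table has a false discovery rate of 0.153 at a log2 fold change of 0.30. In the DESeq2 refit its adjusted p was 0.17, the lowest of the 10 genes there.

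Calcb, which encodes the other CGRP form and lies on the same chromosome from 114718643 to 114723365, had 132.5, 155.7, 134.2, 162 and 141.8 CPM in Kif2a_cKO replicates 1 to 5. In control replicates 1 to 5 it had 120.7, 136.4, 108.6, 128 and 112.8 CPM. Control 2 lay within the Kif2a_cKO range and the other controls lay below it. Calcb had a log2 fold change of 0.26 (SE 0.0846), or 19.8% with a 95% interval from 5.52% to 36.0% (edgeR adjusted p = 0.703). Calca and Calcb are related genes, and 12 stretches of 50 bases occur in transcripts of both, 0.72% of those of Calca and 0.95% of those of Calcb. There were 12.4, 12.3, 14.5, 12.5 and 14.9 Calca counts per Calcb count in Kif2a_cKO replicates 1 to 5, against 11.9, 11.4, 12.8, 14 and 14.2 in controls. The groups overlapped, and the ratio averaged 13.3 ± 1.29 in Kif2a_cKO and 12.9 ± 1.25 in controls (log2 difference 0.05, two-sided exact permutation p = 0.564, 0.683 adjusted over 3 ratios).

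Tac1, the substance P gene (chromosome 6 from 7554879 to 7565834), had 300.5, 393, 409.5, 323 and 395 CPM in Kif2a_cKO replicates 1 to 5, against 291, 347, 288, 390.0 and 306 CPM in control replicates 1 to 5. The groups overlapped over most of their range. Tac1 had a log2 fold change of 0.17 (SE 0.113), with a 95% interval of the difference from -5.2% to 33.0% (edgeR adjusted p = 0.781). Relative to Calca in the same library there were 18.3, 20.6, 21.1, 15.97 and 18.7 Tac1 counts per 100 Calca counts in Kif2a_cKO replicates 1 to 5, against 20.3, 22.3, 20.8, 21.8 and 19.1 in controls. This ratio averaged 18.9 ± 2.04 in Kif2a_cKO and 20.8 ± 1.27 in controls, a log2 difference of -0.14 that did not pass the test (two-sided exact permutation p = 0.111, 0.333 adjusted over 3 ratios).

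Adcyap1, the PACAP gene (chromosome 17 from 93199017 to 93206537), had 131, 160.4, 158, 148 and 144.5 CPM in Kif2a_cKO replicates 1 to 5, against 98.3, 126, 110.5, 152 and 133 CPM in control replicates 1 to 5. Controls 1, 2 and 3 lay below all Kif2a_cKO libraries, and controls 4 and 5 lay within their range. On the log2 scale Adcyap1 differed by 0.26 (SE 0.108), or 19.8% with a 95% interval from 1.87% to 40.8% (edgeR adjusted p = 0.703). Per 100 Calca counts there were 7.73 ± 0.647 Adcyap1 counts in Kif2a_cKO and 7.93 ± 0.630 in controls, a log2 difference of -0.04 (two-sided exact permutation p = 0.683, also after adjustment over 3 ratios). The smallest p this test can give with 5 libraries a group is 0.00794. The 3 ratios do not depend on how libraries are scaled, and they show only how the peptide genes moved relative to each other.

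**Figure D2:**
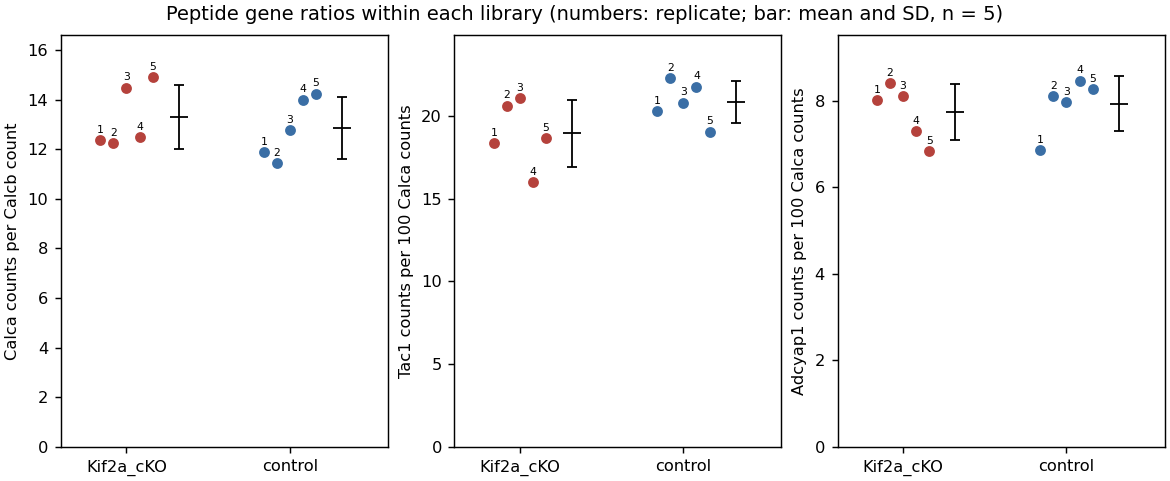
Ratios of raw counts between peptide genes within each library, with Kif2a_cKO left of control, replicate numbers at the points and the mean and SD beside them. In all 3 panels the groups overlap; the Tac1 to Calca ratio is lowest in Kif2a_cKO 4, at 15.97 Tac1 counts per 100 Calca counts.

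The differences of the 4 peptide genes were smaller without controls 1, 3 and 5, a setting that keeps only controls 2 and 4, both low in spinal cord genes. The log2 fold changes were then 0.20 (SE 0.120) for Calca, 0.13 (SE 0.104) for Calcb, 0.09 (SE 0.111) for Adcyap1 and -0.019 (SE 0.134) for Tac1, and edgeR had none of the 4 at an unadjusted p under 0.05. In this setting the log2 differences of the ratios were -0.22 for Tac1 to Calca, -0.10 for Adcyap1 to Calca and 0.07 for Calca to Calcb. With 2 controls the smallest exact permutation p is 0.0952, so no ratio could pass there. With the mean log2 CPM of the spinal cord genes as a covariate, Calca and Calcb had 0.28 (SE 0.0963) and 0.22 (SE 0.0784), and Adcyap1 and Tac1 had 0.20 (SE 0.0975) and 0.099 (SE 0.0950). With the mean log2 CPM of 16 pan-neuronal genes as a covariate in its place, Calca and Calcb had 0.31 (SE 0.0882) and 0.20 (SE 0.0650), and Adcyap1 and Tac1 had 0.23 (SE 0.109) and 0.16 (SE 0.115). Adcyap1 was no longer under an unadjusted p of 0.05 with either covariate, while Calca and Calcb were with both. limma-voom with quality weights gave 0.056 for Tac1. The pan-neuronal score itself was 9.48, 9.55, 9.41, 9.54 and 9.25 in Kif2a_cKO replicates 1 to 5, against 9.39, 9.51, 9.21, 9.41 and 9.34 in controls, and its part in the peptide values was not tested further.

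**Figure D3:**
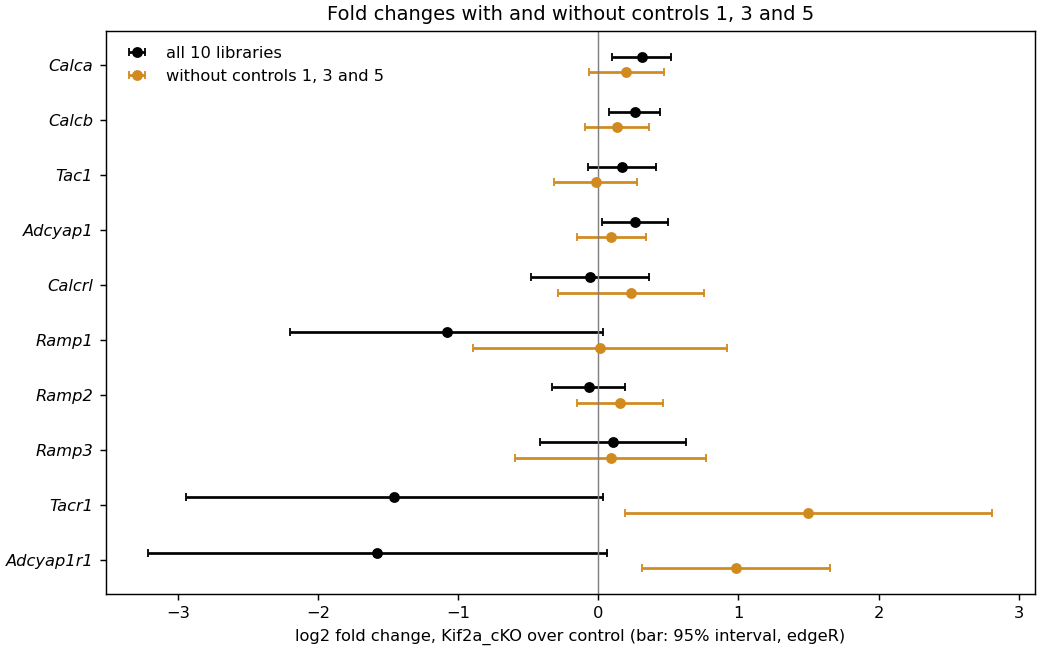
Log2 fold change of Kif2a_cKO over control with its 95% interval in edgeR for each gene, from all 10 libraries (black) and without controls 1, 3 and 5 (orange). The 3 receptor genes with fold changes of -1.58, -1.46 and -1.083 in all libraries have 0.98, 1.5 and 0.013 without these controls.

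Ramp1, the partner that turns Calcrl into the CGRP receptor, had 6.17, 3.99, 7.30, 7.40 and 14.7 CPM in Kif2a_cKO replicates 1 to 5, against 15.4, 8.14, 37.2, 7.47 and 14.96 CPM in control replicates 1 to 5. Only Kif2a_cKO 5 reached the control range, which is wide because control 3 was far above the others. Ramp1 had a log2 fold change of -1.083 (SE 0.497), with a 95% interval from -2.20 to 0.04 (edgeR adjusted p = 0.703). It was -0.57 without control 3 and 0.013 (SE 0.402) without controls 1, 3 and 5. It was -0.50 (SE 0.280) with the spinal cord genes as a covariate and -0.52 (SE 0.253) with the pan-neuronal genes. Ramp1 lies on chromosome 1 from 91179822 to 91225196.

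Calcrl, the receptor subunit shared by CGRP and adrenomedullin (chromosome 2 from 84330626 to 84425411), had 5.32, 5.06, 5.46, 5.69 and 9.13 CPM in Kif2a_cKO replicates 1 to 5, against 5.85, 5.20, 8.88, 5.19 and 6.68 CPM in control replicates 1 to 5. Kif2a_cKO 5 and control 3 were the high libraries, and the other 8 lay between 5.06 and 6.68 CPM. The log2 fold change was -0.06 (SE 0.195), a 95% interval of the difference from -28.3% to 28.7% (edgeR adjusted p = 0.98).

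Ramp2 and Ramp3, the adrenomedullin receptor partners, differed by -0.07 (SE 0.120) and 0.11 (SE 0.241) on the log2 scale in edgeR (adjusted p of 0.947 and 0.968). Ramp2 ranged over 32.7 to 46.3 CPM in Kif2a_cKO libraries, against 30.6 to 46.8 CPM in controls, again highest in Kif2a_cKO 5 and control 3. Annotated Ramp2 exons (chromosome 11 from 101246028 to 101259546) share 1103 bases with Vps25, a neighbour on the same strand, and 30.7% of the 50-base stretches of Ramp2 transcripts also occur in Vps25, so the Ramp2 count is uncertain. Ramp3, on the same chromosome from 6658521 to 6677475, had 1.67, 1.87, 2.05, 1.85 and 1.55 CPM in Kif2a_cKO replicates 1 to 5, against 1.14, 1.075, 2.30, 2.40 and 1.52 CPM in controls. limma-voom with quality weights gave a log2 fold change of 0.25 for Ramp3. The controls of Ramp3 spread on either side of the Kif2a_cKO range, and 101 of its exon bases lie opposite the pseudogene Gm11978.

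The libraries high in Calcrl, Ramp1 and Ramp2 had other features in common. Kif2a_cKO 5 and control 3 had the lowest pan-neuronal scores of their groups, 9.25 and 9.21, and the highest summed levels of 10 macrophage markers, 367 and 382 CPM, where the other Kif2a_cKO libraries had 250.3 to 279.8 CPM and the other controls 232 to 295 CPM. Markers of endothelial cells, which are known to express Calcrl and Ramp2, summed to 207 to 247 CPM in Kif2a_cKO, against 197 to 252.2 CPM in controls over 15 genes, none of them at 0 in all libraries. With the pan-neuronal score as a covariate the log2 fold changes were 0.14 (SE 0.119) for Calcrl and 0.065 (SE 0.0586) for Ramp2. The part of macrophages and endothelial cells in the receptor levels was not tested.

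Adcyap1r1, the PACAP receptor gene (chromosome 6 from 55451978 to 55501451), had 6.05, 3.29, 4.49, 7.43 and 4.89 CPM in Kif2a_cKO replicates 1 to 5, against 13.9, 2.55, 41.5, 2.79 and 17.4 CPM in control replicates 1 to 5. Controls 1, 3 and 5 lay above every Kif2a_cKO library, and controls 2 and 4 lay below every one. The log2 fold change was -1.58 (SE 0.722), with a 95% interval from -3.22 to 0.06 (edgeR adjusted p = 0.703), and -0.84 without control 3. It turned to 0.98 (SE 0.302) without controls 1, 3 and 5, which leaves 2 controls (edgeR adjusted p = 0.991). With the spinal cord genes as a covariate it was -0.24 (SE 0.203), and with the pan-neuronal genes -0.58 (SE 0.840). limma-voom with quality weights gave -0.52, and the replicate block -1.004.

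Tacr1, the substance P receptor gene (chromosome 6 from 82402334 to 82560104), was the least abundant of the 10, with 2 to 105 counts a library. It had 0.44, 0.49, 0.59, 0.46 and 0.20 CPM in Kif2a_cKO replicates 1 to 5, against 0.91, 0.18, 3.10, 0.11 and 1.52 CPM in control replicates 1 to 5. As for Adcyap1r1, controls 1, 3 and 5 were above all Kif2a_cKO libraries and controls 2 and 4 below all of them. The log2 fold change was -1.46 (SE 0.679), with a 95% interval from -2.95 to 0.03 (edgeR adjusted p = 0.703), and -0.74 without control 3. Without controls 1, 3 and 5 it was 1.5 (SE 0.592; edgeR adjusted p = 0.991), where 1.96% of all tested genes were higher and 1.37% lower at an unadjusted p under 0.05, a threshold that of the 10 only Tacr1 and Adcyap1r1 passed, both higher. With the spinal cord genes as a covariate the difference was -0.15 (SE 0.519), and with the pan-neuronal genes -0.56 (SE 0.791). limma-voom with quality weights gave -0.21, and the replicate block -0.96.

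**Figure D4:**
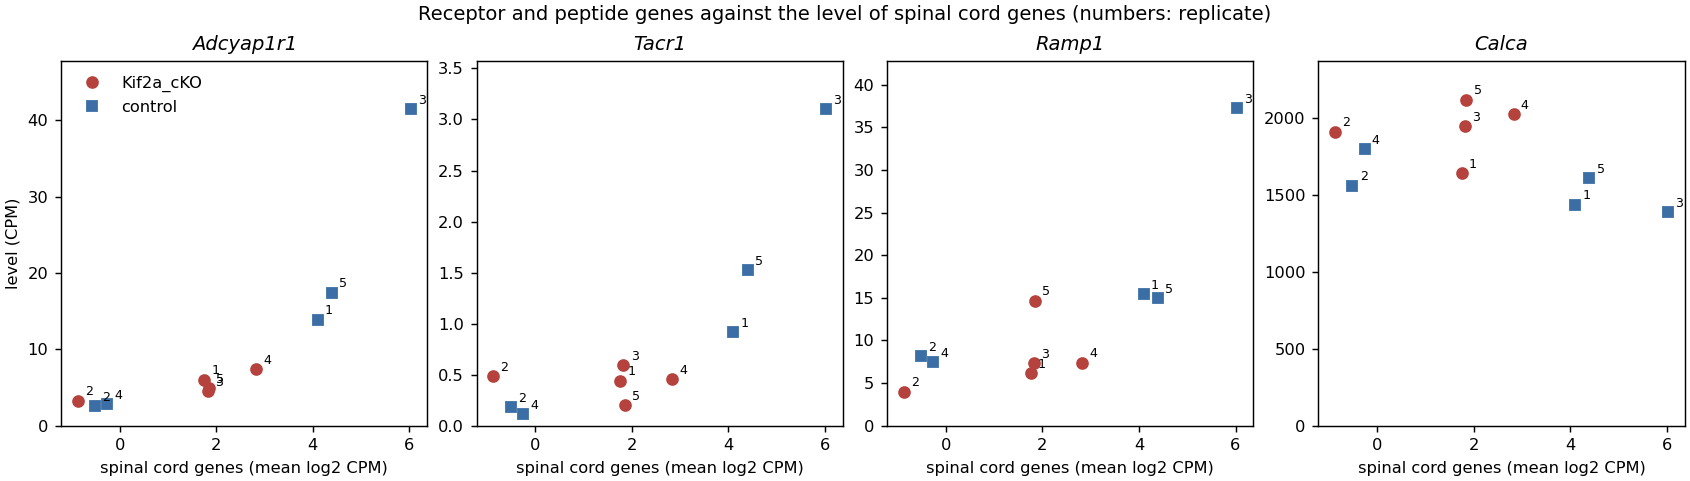
Level in CPM of Adcyap1r1, Tacr1, Ramp1 and Calca against the mean log2 CPM of 16 spinal cord genes in each library, with replicate numbers; red circles are Kif2a_cKO and blue squares are controls. Controls 3, 5 and 1 are the 3 libraries highest in spinal cord genes and in Adcyap1r1 and Tacr1, and control 3, at a spinal cord value of 6.03, is lowest in Calca with 1386 CPM.

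The order of libraries by spinal cord genes and by Adcyap1r1 was alike. Controls 3, 5 and 1 and then Kif2a_cKO 4 were highest in both, and Kif2a_cKO 2 and controls 2 and 4 were the lowest 3 in both. The 17 spinal cord genes deposited summed to 37.6 to 325 CPM in Kif2a_cKO, against 62.6 to 2394 CPM in controls, and all 16 tested had a log2 fold change below 0 (median -2.47). edgeR called none of these genes, and DESeq2 called 1, where it called 0.184% of all genes. Without controls 1, 3 and 5 their median was 2.18, with 15 of 16 above 0, the same turn of sign as for Adcyap1r1 and Tacr1. Opalin, an oligodendrocyte protein, averaged 0.589 ± 0.405 CPM in Kif2a_cKO, against 5.65 ± 7.53 CPM in controls, and Slc18a3, the vesicular acetylcholine transporter, 0.214 ± 0.188 CPM in Kif2a_cKO, against 4.40 ± 5.67 CPM in controls. Without controls 1, 3 and 5 Opalin had a log2 fold change of 3.155, and Slc18a3 had -0.097, the only gene of the 16 still below 0. Satellite glia markers, 7 genes of the cells that wrap sensory neuron cell bodies, summed to 4938 to 6128 CPM in Kif2a_cKO, against 4602 to 5687 CPM in controls. Most of this sum was Apoe, with means of 4838 CPM in Kif2a_cKO and 4126 CPM in controls. Kcnj10, Slc1a3, Gja1 and Glul were highest in control 3 (314, 88.3, 107 and 603 CPM), whereas Apoe and Cdh19 were lowest there and Fabp7 was neither. The mean log2 CPM of the 7 had a Pearson correlation of 0.93 with Adcyap1r1, where spinal cord genes had 0.97. The part of spinal cord RNA in the receptor values was not tested beyond these fits.

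Per exon length, Calca stood far above the other genes, at 1144 ± 106 CPM per kb in Kif2a_cKO and 924 ± 94.8 CPM per kb in controls. Calcb followed with 115 ± 10.4 CPM per kb in Kif2a_cKO and 96.0 ± 8.92 in controls, and Tac1 with 107 ± 14.4 CPM per kb in Kif2a_cKO and 95.5 ± 12.8 in controls. The order of Calcb and Tac1 was not settled, since Calcb was higher in 3 of 5 Kif2a_cKO libraries and 3 of 5 controls. Adcyap1 had 39.3 ± 3.05 CPM per kb in Kif2a_cKO and 32.8 ± 5.44 CPM per kb in controls, below Tac1 and above Ramp2 in all 10 libraries. Among the receptor genes Ramp2 led with 11.1 ± 1.68 CPM per kb in Kif2a_cKO and 11.6 ± 1.83 in controls, with the uncertainty from Vps25 given above, and Ramp1 had 2.62 ± 1.34 CPM per kb in Kif2a_cKO and 5.51 ± 4.001 CPM per kb in controls. Calcrl, Ramp3 and Adcyap1r1 had overlapping ranges and changed order between libraries: Adcyap1r1 was above Calcrl in 0 of 5 Kif2a_cKO libraries and in 3 of 5 controls. Tacr1 was lowest in every library, at 0.067 ± 0.022 CPM per kb in Kif2a_cKO and 0.18 ± 0.189 CPM per kb in controls. The length used is that of all annotated exons of a gene together, which can exceed that of its main transcript. Levels per length, and the order of genes close in level, therefore depend on the annotation.

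**Figure D5:**
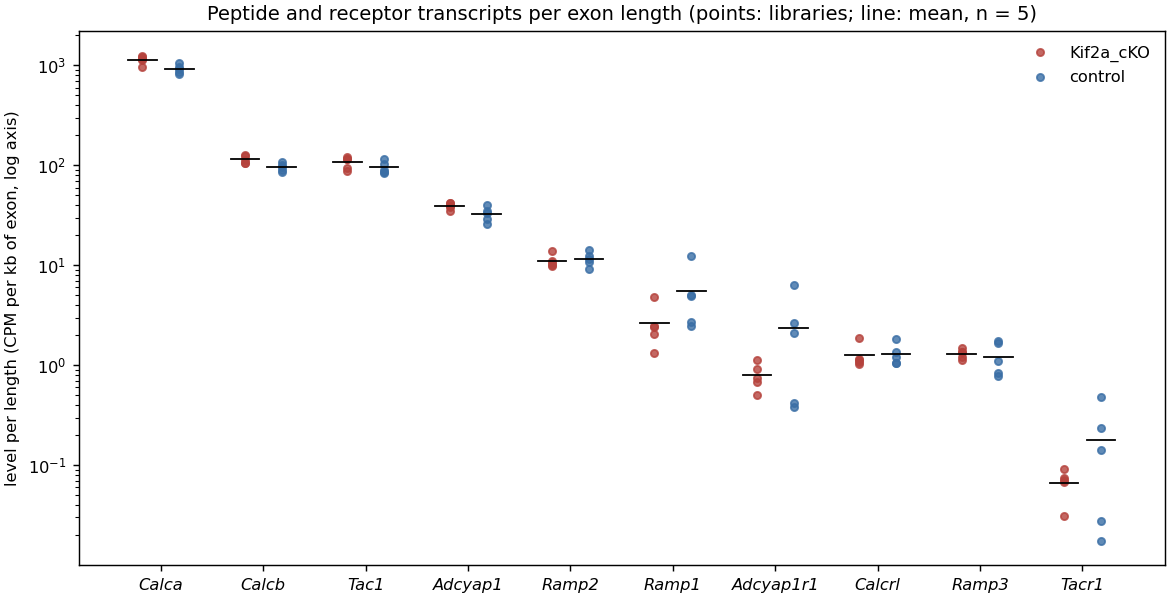
Level per exon length in CPM per kb of annotated exon (log axis) for the 10 genes, ordered by the control mean, with Kif2a_cKO left of control; points are libraries and lines are means of 5. Peptide genes occupy the left and receptor genes the right: Adcyap1, the lowest peptide gene, averages 39.3 CPM per kb in Kif2a_cKO, and Ramp2, the highest receptor gene, 11.1 CPM per kb.

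Other genes linked to these peptides and receptors, not all of the same families, were mostly scarce. Of 6 related peptide genes 5 were deposited and 2 were tested, Adm and Tac2, with none called. Adm, which encodes adrenomedullin, averaged 2.52 ± 0.986 CPM in Kif2a_cKO libraries, against 3.50 ± 0.481 CPM in controls (log2 fold change -0.48, SE 0.245). Of 6 related receptor genes 4 were tested and none was called. Crcp, which encodes a component of the CGRP receptor complex, averaged 47.7 ± 3.05 CPM in Kif2a_cKO libraries, against 42.6 ± 2.90 CPM in controls (log2 fold change 0.16, SE 0.0684, edgeR adjusted p = 0.703). Its log2 fold change was 0.074 without controls 1, 3 and 5.

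Downstream of these receptors, 33 signalling genes were tested (G proteins, adenylyl cyclases and their effectors), 9 with a log2 fold change above 0 and 24 below, around a median of -0.05. Over all 17439 tested genes 9090 were above 0. edgeR called none of the 33. At an unadjusted p under 0.05 none was higher and 3 were lower, where 2.97% and 4.01% of all tested genes were. The 3 were Adcy1, Rapgef3 and Adcy6, 2 of them adenylyl cyclases. Adcy1 had 90.4, 85.1, 85.3, 84.4 and 91.7 CPM in Kif2a_cKO replicates 1 to 5, against 118, 94.4, 120.0, 103 and 106 CPM in control replicates 1 to 5. Its groups did not overlap, as in 0.436% of tested genes with Kif2a_cKO below, and the difference on the log2 scale was -0.31 with an SE of 0.0750 (edgeR adjusted p = 0.579), or -0.17 without controls 1, 3 and 5. Rapgef3, which encodes an exchange factor activated directly by cyclic AMP, had 8.90, 8.04, 7.23, 7.98 and 9.03 CPM in Kif2a_cKO replicates 1 to 5, against 11.3, 10.3, 19.4, 9.12 and 11.7 CPM in controls. These groups did not overlap either, and the log2 fold change of -0.59 (SE 0.177, edgeR adjusted p = 0.703) was -0.24 without controls 1, 3 and 5. Of 11 peptide-degrading enzymes none was called or had an unadjusted p under 0.05 in edgeR. The most abundant of them, Mme, encodes neprilysin, which cleaves substance P, and averaged 78.7 ± 17.0 CPM in Kif2a_cKO libraries, against 83.7 ± 9.24 CPM in controls.

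Among other markers of peptidergic nociceptors 7 of 9 tested had a log2 fold change above 0, around a median of 0.16, and edgeR called none. At an unadjusted p under 0.05, 2 of the 9 were higher and 0 lower, where 2.97% and 4.01% of all tested genes were. Gal, which encodes the neuropeptide galanin, averaged 27.6 ± 6.08 CPM in Kif2a_cKO libraries, against 20.2 ± 5.91 CPM in controls (log2 fold change 0.46, SE 0.207, edgeR adjusted p = 0.703). Tafa1, which encodes a small secreted protein, averaged 22.7 ± 2.62 CPM in Kif2a_cKO libraries, against 19.3 ± 2.45 CPM in controls, a log2 fold change of 0.24 (SE 0.104). Without controls 1, 3 and 5 the median of the 9 was 0.04, with 5 of 9 above 0, and Gal and Tafa1 had 0.18 and 0.096. Pan-neuronal genes had a median of 0.12, with 13 of 16 above 0. At that unadjusted p 3 of the 16 were higher and 0 lower, beside the same shares of all tested genes. Of the 3 higher, Stmn3 and Gap43, which act on microtubules and on axon growth, differed by 0.22 (SE 0.0801) and 0.23 (SE 0.0987) on the log2 scale. The pan-neuronal median was 0.033 without controls 1, 3 and 5, with 9 of 16 above 0, and Stmn3 and Gap43 had 0.14 and 0.10.

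Schwann cell genes for myelin, the sheath of large axons, had lower values in Kif2a_cKO. All 9 had a log2 fold change below 0 (median -0.35), where 8349 of all 17439 tested genes were below 0. At an unadjusted p under 0.05, 5 of the 9 were lower, where 4.01% of all tested genes were. edgeR called none of the 9 and DESeq2 called 1, where DESeq2 called 0.184% of all genes. Without controls 1, 3 and 5 the median was -0.15, with 1 of 9 above 0. Of the 5, Mag then had -0.15 in place of -1.053, Mbp -0.054 in place of -0.45 and Cnp -0.060 in place of -0.35. Fa2h and Prx had -0.48 and -0.36 without these controls, against -0.50 and -0.35 with them. Fa2h, which encodes an enzyme of myelin lipid synthesis, averaged 139 ± 22.4 CPM in Kif2a_cKO libraries, against 197 ± 16.9 CPM in controls, and Prx, which encodes periaxin, averaged 759 ± 84.5 CPM in Kif2a_cKO libraries, against 968 ± 110.3 CPM in controls. The 7 satellite glia markers were split, with 3 above 0 and 4 below (median -0.22). Among all tested genes 2.97% were higher at an unadjusted p under 0.05. The 3 markers above 0, Apoe, Fabp7 and Cdh19, had such a p, and edgeR called none. Examples are Fabp7, a fatty acid binding protein, with 226 ± 31.9 CPM in Kif2a_cKO, against 173.5 ± 30.1 CPM in controls, and Cdh19, a cadherin, with 94.8 ± 9.70 CPM in Kif2a_cKO, against 80.1 ± 4.11 CPM in controls. The 4 below 0 had log2 fold changes of -1.086 (Slc1a3), -0.80 (Kcnj10), -0.78 (Gja1) and -0.22 (Glul), none at an unadjusted p under 0.05. Glia of the spinal cord are known to express genes of both the myelin and the satellite glia lists, and their part in these values was not tested. All 7 were above 0 without controls 1, 3 and 5 (median 0.21), and Fabp7 had 0.16. None of the 15 endothelial, 10 mural and 10 macrophage markers had an unadjusted p under 0.05. Their most abundant members were Egfl7 (log2 fold change -0.03), Rgs5 (0.20) and Lyz2 (0.07). The part of these cells in the peptide and receptor values was not tested.

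Patterns across libraries were compared by the Pearson correlation of log2 CPM, as deviations from the group mean over the 10 libraries, among 14990 genes with a mean of at least 1 CPM. The genes most like Calca were Ap3m1 (0.986), Hagh (0.948) and Stambpl1 (0.941). Those most like Tac1 were Terf1 (0.946), Oas1c (0.938) and Ccdc115 (0.934). For Adcyap1 they were Cdc5l (0.937), Gm26871 (0.937) and Gm40466 (0.923), and for Calcrl they were Rnf13 (0.977), Kcnj2 (0.973) and Pglyrp1 (0.969). No other member of the 10 was among these, and values this high are the largest of many comparisons over few libraries that share depth and cell makeup. Pairs of the 10 members ran from -0.73 (Tac1 and Adcyap1r1) to 0.93 (Calcrl and Ramp1) by the same measure. Calcrl and Ramp2 had 0.92, Tacr1 and Adcyap1r1 0.92, and Calca and Adcyap1 0.77.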

How the data were processed

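The authors deposited a table of counts per gene symbol, whole numbers, for 10 libraries. The tools listed in the submitters' processing notes are cutadapt, STAR and DESeq2, and the build is mm10. No source used here gives the read counter, annotation or strandedness. The deposited table also holds a normalized signal per library, log2 values, and the authors' own log2 fold change with its p-value and false discovery rate. Only the counts were tested here, so a gene's isoforms and cell types stay summed.

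The filter filterByExpr, at a minimum count of 10 and a total of 15, removed 6484 of 23923 genes. Libraries were scaled by TMM (factors 0.957 to 1.05) and tested on group alone with edgeR 4.0.16's quasi-likelihood test in R 4.3.3, adjusted by Benjamini-Hochberg over all tested genes. A gene is called at an adjusted p under 0.05. The standard error is the absolute log2 fold change divided by the square root of F. log2 CPM used a prior count of 2. Alternatives were DESeq2 1.42.0, limma-voom (limma 3.58.1), other scalings and filters, covariates, a replicate block and left-out libraries. The tools were tested on simulated data with larger fold changes than those of the peptide genes and no spinal cord differences between libraries. That test does not show how well differences like those of the 10 genes would be found. Positions and exon lengths are from GENCODE M21 (GRCm38). No pair of replicates agreed within sampling noise (lowest chi-square 10.3 per gene), and every library entered as 1 sample.

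The members, lists and alternatives were chosen with earlier results of these data known. Named genes are all members, Kif2a, Avil, of each other list the called genes, or otherwise up to 2 with the lowest unadjusted p under 0.05, or otherwise the most abundant, and the 3 genes most like each of 4 members. Adcy6, Apoe, Slc1a3, Kcnj10, Gja1, Glul, Mag, Mbp, Cnp and Tac2 lie outside this rule and were named after their values were seen. Dimt1, Vps25 and Gm11978 were named for their overlapping exons.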

Additional observations from a re-analysis of the deposited data

Results flagged for a closer look

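Among 26 sets of 5 values checked for a value far from the others of its group, 3 stood out, where chance gives about 1 in 20. In Kif2a_cKO 5, Calcrl had 9.13 CPM, where the other 4 Kif2a_cKO libraries had 5.06 to 5.69 CPM. In the same library Ramp2 had 46.3 CPM, where the others had 32.7 to 36.1 CPM. In control 3, Ramp1 had 37.2 CPM, where the other controls had 7.47 to 15.4 CPM. Without Kif2a_cKO replicate 5 the log2 fold changes were -0.26 for Calcrl and -0.18 for Ramp2, and without control replicate 3 that of Ramp1 was -0.57, none of them called.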

How the results depend on the processing

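None of the 10 genes was called, higher or lower, under any of the 21 alternatives run. Over all tested genes 3 were called, against 32 with DESeq2, 0 with at least 1 CPM in 5 libraries (1011 at an unadjusted p under 0.05), 0 with the replicate block (1499 at that p) and 0 without controls 1, 3 and 5 (604 at that p). Leaving out 1 library gave between 0 and 3 calls, with 3 without Kif2a_cKO 3, 2 without control 2, 1 without control 3 and 0 without any other. Fold changes of Calca, Calcb and Adcyap1 kept their sign throughout. Without controls 1, 3 and 5 the sign turned for Calcrl (0.24), Ramp1 (0.013), Ramp2 (0.15), Tac1 (-0.019), Tacr1 (1.5) and Adcyap1r1 (0.98). With the spinal cord covariate it turned for Calcrl (0.087) and Ramp2 (0.027), and with the pan-neuronal covariate for Calcrl (0.14) and Ramp2 (0.065). Leaving out 1 library gave -0.26 to 0.073 for Calcrl (above 0 without control 3 or Kif2a_cKO 2), -0.029 to 0.24 for Ramp3 (below 0 without control 1 or 2) and -0.088 to 0.0068 for the Adcyap1 to Calca ratio (above 0 without Kif2a_cKO 5). Without a turn of sign, limma-voom moved Tacr1 to -0.21, Adcyap1r1 to -0.52, Tac1 to 0.056 and Ramp3 to 0.25, and the block moved Tacr1 to -0.96 and Adcyap1r1 to -1.004. The cause of these moves was not tested. Tacr1 was not tested at 1 CPM in 5 libraries, and with 2 controls the smallest exact p of a ratio is 0.0952. Replicate numbers were not taken to pair samples, since the deviations of same-numbered libraries had a correlation over 0.1 for 4 of 5 numbers (0.177, 0.367, 0.14 and 0.252) but -0.147 for replicate 4. Numbers 1, 2 and 5 were each other's best match in both groups. The sample titles also give libraries of the same number adjacent ID numbers, but state no shared litter, batch or day. A paired design is therefore possible and not settled. With the block the log2 fold changes were 0.31 (SE 0.0784) for Calca, 0.26 (SE 0.0585) for Calcb and 0.27 (SE 0.0833) for Adcyap1. Their edgeR adjusted p-values were 0.4325, 0.36 and 0.454, and their unadjusted p-values 0.00296, 0.00134 and 0.00886. Low counts limit Tacr1 and Ramp3, with at least 2 and 30 counts a library.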
